A study of Mus musculus with 32 samples.

Results

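GSMG0038934 and GSMG0023431 are 2 of the 56459 features in a count table of ribosome-associated RNA from mouse forebrain. They were selected on their measured values in that table, because they held large shares of the counts in the populations named Scnn and VIP. Their levels between groups are therefore a description and carry no test. The table does not pair its identifiers with gene names, and 0 of them matched the reference tables used here, so the genes behind both features, their positions and their sequences are not given. The deposited lengths were 2095 for GSMG0038934 and 1489 for GSMG0023431.

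The 32 libraries fall into 8 groups of 4, each named in the labels by a driver and a tissue. The cortical groups were CamK, Scnn, PV, SST and VIP, and the hippocampal groups were CamK, Grik and SST. The genotype of every library was given as WT, with no age or treatment and no statement that replicates came from separate animals. P-values therefore measure only the spread between these samples, which may be technical. The titles of the 3 hippocampal groups and of VIP cortex carry a W, whose meaning is not stated, and those of the other cortical groups do not. Within CamK and SST, tissue and title series cannot be told apart.

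In work of this kind the names stand for genetic drivers that mark classes of neurons, and RNA is recovered with the ribosomes of the marked cells. As background, CamK drivers are used for glutamatergic neurons broadly, Scnn drivers for layer 4 neurons of cortex and Grik drivers for pyramidal neurons of hippocampal area CA3. PV, SST and VIP name classes of GABAergic interneurons. Layer 4 cells are excitatory and receive input from the thalamus, and VIP interneurons mostly inhibit other interneurons. Ribosome capture enriches RNA of the marked cells but retains some RNA of their neighbours. The labelled classes and tissues could not be checked against marker genes, because no feature carries a name. In such bulk libraries, a different number of cells that contain an RNA and a different amount of it per cell cannot be told apart.

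Total counts ranged from 100158438 to 114153919 in 31 libraries, and SST hippocampus replicate 1 held 186505391. The smallest count of either feature in any library was 33618 and the largest was 9587616, so counting error was small beside the differences between replicates. A share below is the percentage of all counts in a library, and CPM is the same share written as counts per 1000000 counts.

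Both features had their highest group means in Scnn and VIP cortex and their lowest in the CamK groups. In Scnn cortex, GSMG0038934 held 3.18%, 9.09%, 1.59% and 4.21% of counts in replicates 1 to 4, which correspond to 31808, 90857, 15854 and 42150 CPM. In VIP cortex its shares were 3.41%, 2.25%, 2.73% and 4.15%. In CamK cortex they were 0.143%, 0.127%, 0.169% and 0.222%. Every Scnn and every VIP library lay above every CamK library, while the Scnn and VIP libraries overlapped.

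GSMG0023431 held 1.39%, 3.88%, 0.971% and 2.56% of counts in the 4 Scnn libraries. It held 1.85%, 1.38%, 1.8% and 2.58% in the 4 VIP libraries. Its shares in CamK cortex were 0.0693%, 0.0505%, 0.0855% and 0.138%. The library order within Scnn was the same for both features, with replicate 2 highest and replicate 3 lowest.

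By group mean, the interneuron groups other than VIP lay between these extremes. In PV cortex GSMG0038934 held 0.722%, 1.06%, 0.499% and 0.916%, and GSMG0023431 held 0.285%, 0.841%, 0.459% and 0.964%. SST cortex split into a low and a high pair of libraries for both features. There GSMG0038934 held 0.381% and 0.4% in replicates 1 and 2 against 1.68% and 1.41% in replicates 3 and 4, and GSMG0023431 held 0.152% and 0.192% against 0.59% and 0.639%. In SST hippocampus, with replicates numbered 1, 2, 3 and 5, GSMG0038934 held 2.43%, 2.0%, 0.878% and 1.62%. GSMG0023431 held 1.02%, 0.627%, 0.464% and 0.92% in the same libraries.

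The hippocampal glutamatergic groups were low. In Grik hippocampus, replicates 3 to 6, GSMG0038934 held 0.189%, 0.199%, 0.265% and 0.321%, and GSMG0023431 held 0.128%, 0.132%, 0.131% and 0.218%. In CamK hippocampus, replicates 2 to 5, GSMG0038934 held 0.119%, 0.116%, 0.0634% and 0.0637%. GSMG0023431 held 0.0668%, 0.0596%, 0.0304% and 0.0436% there. From the lowest library, CamK hippocampus replicate 4, to the highest, Scnn cortex replicate 2, the share of GSMG0038934 differed 143.3-fold and that of GSMG0023431 differed 127.3-fold.

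**Figure D1:**
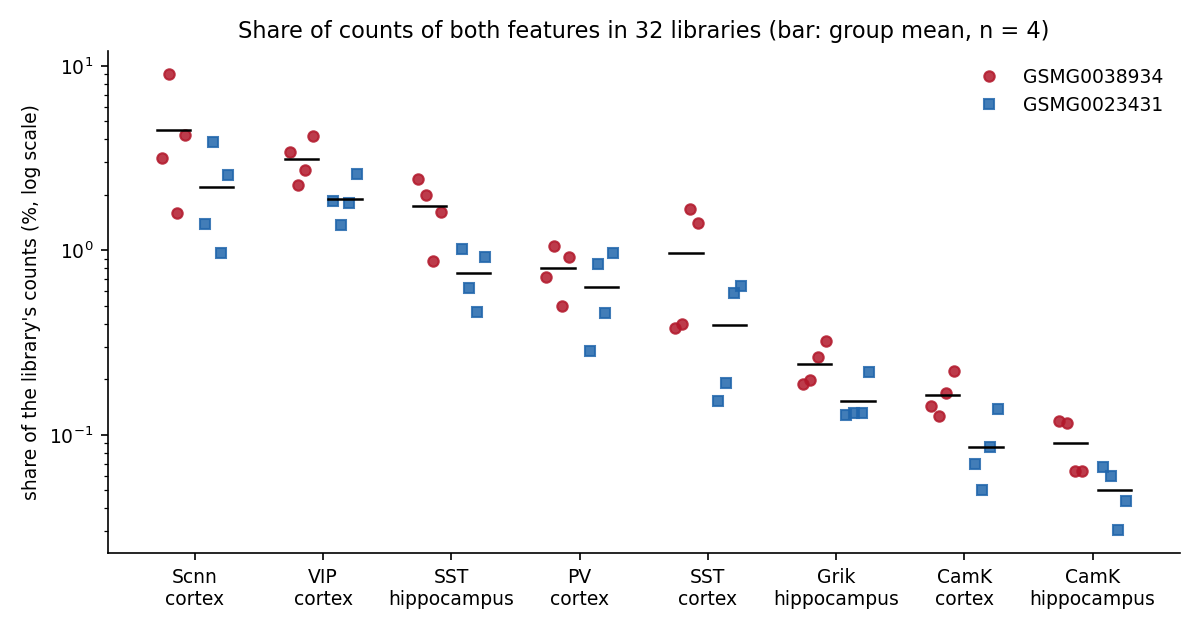
Share of all counts (%, log axis) held by GSMG0038934 and GSMG0023431 in each of the 32 libraries, by group, with bars at the group means. All Scnn and VIP libraries sit above all CamK and Grik libraries, and the spread within Scnn and within SST cortex is wide.

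Together the pair held 6.72% ± 4.51 (SD, n = 4) of counts in Scnn cortex and 5.04% ± 1.31 (SD, n = 4) in VIP cortex. The joint share was 2.49% ± 0.871 (SD, n = 4) in SST hippocampus, 1.44% ± 0.524 (SD, n = 4) in PV cortex and 1.36% ± 0.928 (SD, n = 4) in SST cortex. It was 0.396% ± 0.101 (SD, n = 4) in Grik hippocampus, 0.251% ± 0.0792 (SD, n = 4) in CamK cortex and 0.141% ± 0.0469 (SD, n = 4) in CamK hippocampus. The first place of Scnn rested on replicate 2, in which the pair held 13% of counts. Without that library the Scnn mean was 4.64%, below that of VIP.

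Most neighbours in the order of group means shared part of their range. For the joint share, VIP cortex and SST hippocampus were the only neighbours without overlap, at 3.63% to 6.73% against 1.34% to 3.46%. For GSMG0023431 the same step was the only one without overlap. For GSMG0038934 the steps without overlap were PV cortex over Grik hippocampus and CamK cortex over CamK hippocampus. Scnn cortex, first by mean, overlapped SST hippocampus, which was not its neighbour. Scnn replicate 3 held 2.56% jointly, against 3.46% in SST hippocampus replicate 1. The same libraries stood at 1.59% against 2.43% for GSMG0038934 and 0.971% against 1.02% for GSMG0023431. For GSMG0038934, Scnn replicate 3 also lay below SST cortex replicate 3 (1.68%), and VIP replicate 2 (2.25%) below SST hippocampus replicate 1. Over all pairs of groups, 20 of 28 did not overlap, both for each feature and for the joint share.

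GSMG0038934 was the most abundant feature in 10 libraries, which included all 4 Scnn and all 4 VIP libraries. GSMG0023431 was second in all VIP libraries and in 3 Scnn libraries, and ranked 3 in Scnn replicate 3. At the other end, in CamK hippocampus replicate 4, they ranked 188 and 579. The highest other feature held 1.14% ± 0.341 (SD, n = 4) of counts in Scnn and 0.923% ± 0.483 (SD, n = 4) in VIP, against 2.97% ± 0.672 (SD, n = 4) in CamK hippocampus.

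The fitted differences put these levels on one scale. In edgeR's quasi-likelihood fit over all libraries, with TMM scaling (a trimmed mean of ratios between libraries), GSMG0038934 was 25.9-fold higher in Scnn than in CamK cortex (log2 4.70, SE 0.55). GSMG0023431 was 24.3-fold higher (log2 4.60, SE 0.55). Against the mean of PV and SST cortex, GSMG0038934 was 3.05-fold higher in VIP (log2 1.61, SE 0.39) and GSMG0023431 was 3.25-fold higher (log2 1.70, SE 0.39). No p-value is given for these, since the pair was chosen by these differences. Without Scnn replicate 2 the Scnn differences were 4.07 and 4.16 on the log2 scale.

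The ratio between the 2 features varied far less than either level. GSMG0038934 had 0.95 to 3.2 counts for each count of GSMG0023431, with a median of 1.87, and more counts in 31 of 32 libraries. Per unit of deposited length the ratio ran from 0.675 to 2.27 with a median of 1.33, and it was above 1 in 29 of 32 libraries. Group means of the count ratio ran from 1.46 ± 0.726 (SD, n = 4) in PV cortex to 2.41 ± 0.343 (SD, n = 4) in SST cortex. Only 3 of 28 pairs of groups did not overlap in this ratio, against 20 of 28 for the shares. PV cortex held the widest spread of ratios, at 2.53, 1.26, 1.09 and 0.95 in replicates 1 to 4.

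The features also moved together among replicates. Each library's log2 share was set against the mean of its group, which removes the differences between groups. The deviations of the 2 features had the same sign in 28 of 32 libraries, with a Pearson r of 0.89 and a Spearman rho of 0.89. In SST hippocampus the sign was the same in 2 of 4 libraries, the fewest of any group. Without the 2 libraries farthest from the median r was 0.86, and without the Scnn and SST cortex groups it was 0.78 over 24 libraries. These correlations are descriptions, and each pair of values comes from 1 library and shares its total. The deviations differed from each other with an SD of 0.33 on the log2 scale over all groups, from 0.12 in VIP cortex to 0.63 in PV cortex.

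**Figure D2:**
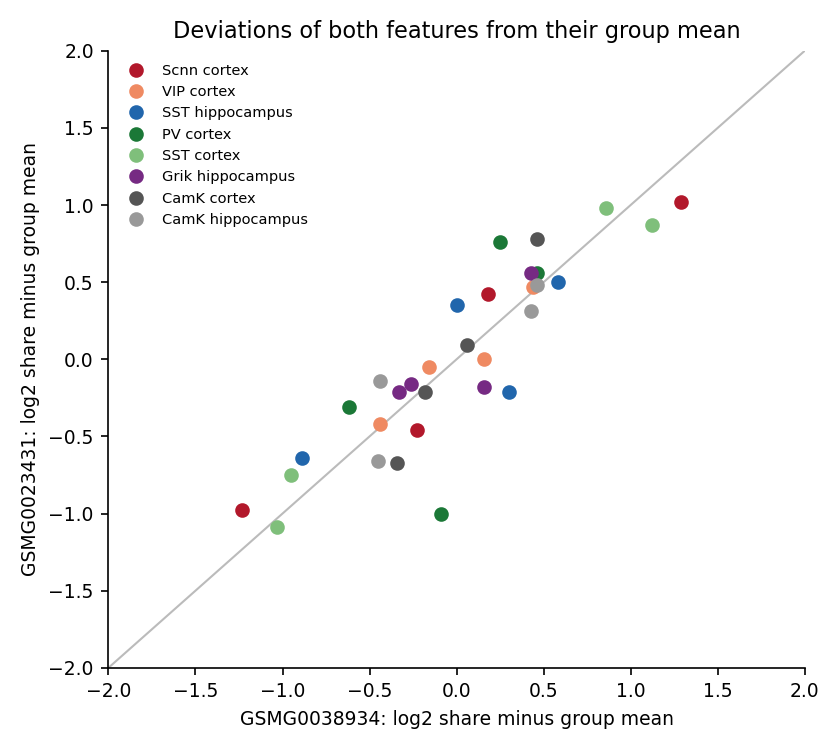
Deviation of the log2 share of GSMG0023431 from its group mean against that of GSMG0038934, 1 point per library. Most points lie near the line of equal deviation, with the same sign in 28 of 32 libraries but in only 2 of 4 in SST hippocampus. PV cortex replicate 1 lies off the line, at -0.09 for GSMG0038934 and -1.0 for GSMG0023431.

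The variation of the pair inside groups was then used to ask which other features move with it. This measure does not use the differences between groups that chose the pair. A coefficient for the pair's log2 joint share, centred within groups, was fitted with edgeR to each of 24587 other features after both members had been removed from the table. A coefficient of 1 means a doubling for each doubling of the pair. With adjusted p under 0.05 (edgeR's quasi-likelihood test, Benjamini-Hochberg), 12 features were called, or 0.0488% of those tested. All 12 coefficients were positive, from 0.43 to 1.27, while 48.1% of all coefficients were positive and their median was -0.00. At an unadjusted p under 0.05 there were 1900 features. The count depended on single libraries: it was 3 without Scnn replicate 2 and 3 without Scnn replicate 3.

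The features called formed a small, mixed set by abundance. Their mean level ran from 0.732 to 867.6 CPM and their deposited length from 674 to 9269. GSMG0051010 had the largest coefficient among those that averaged 5 CPM or more, at 1.27 (SE 0.23, edgeR adjusted p = 0.0228). It stood at 17.4, 89.3, 3.6 and 7.28 CPM in the 4 Scnn libraries, so replicate 2 was high, and it was called in 34 of 44 settings of the analysis. GSMG0002622 was next at 1.02 (SE 0.10, edgeR adjusted p = 7.75e-07).

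**Figure D3:**
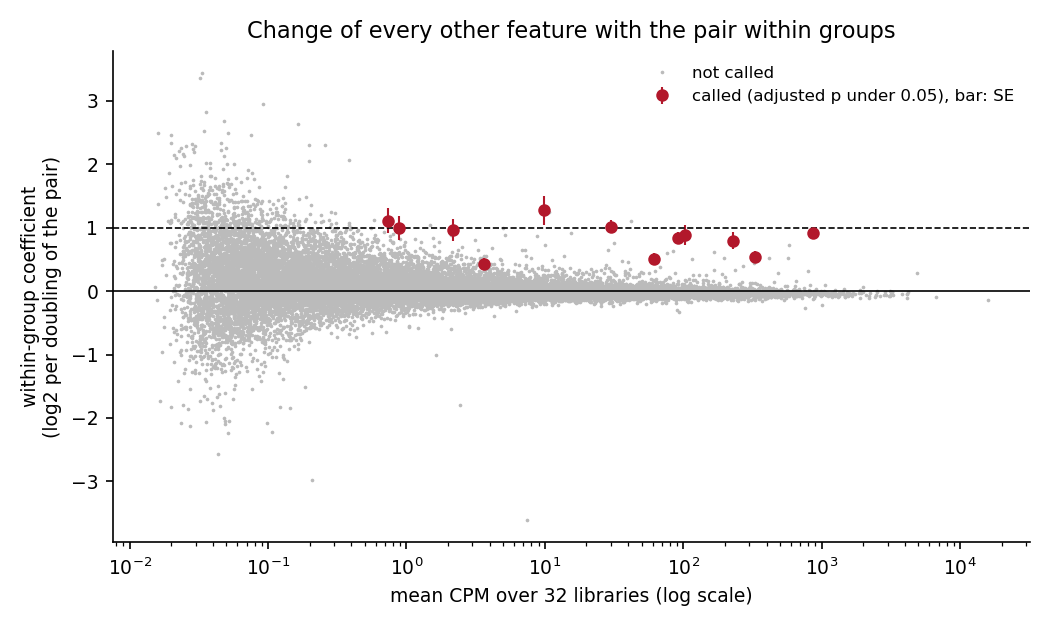
Within-group coefficient (log2 change per doubling of the pair) against mean CPM (log axis) for 24587 other features, with SE bars on the 12 called at adjusted p under 0.05. The called features are all positive, and the dashed line at 1 marks change in proportion to the pair.

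Only 3 of the 12 were called in all 44 settings, and they are named here after their values were seen. GSMG0012407 had a coefficient of 0.91 (SE 0.05, edgeR adjusted p = 9.67e-14). GSMG0007305 had 0.84 (SE 0.08, edgeR adjusted p = 7.75e-07), and GSMG0002622 was the third. The CPM of these features below is taken on library totals without the pair.

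GSMG0012407 stood at 1752, 5381, 1117 and 2770 CPM in the 4 Scnn libraries and at 2062, 1492, 1805 and 2398 CPM in the 4 VIP libraries. It stood at 77.2, 91.8, 116.5 and 148.5 CPM in CamK cortex. Scnn and VIP overlapped and lay above all CamK cortex libraries, and Scnn replicate 2 was again highest and replicate 3 lowest. GSMG0002622 stood at 69.3, 181.0, 39.4 and 106.7 CPM in Scnn against 1.88, 2.08, 2.3 and 5.51 CPM in CamK cortex. GSMG0007305 stood at 239.5, 632.0, 150.1 and 362.4 CPM in Scnn against 8.92, 8.1, 8.13 and 14.9 CPM in CamK cortex. In neither feature did the Scnn and CamK cortex libraries overlap. How large a share of all tested features lacked such overlap was not counted.

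By the rule given below, 12 of the 12 features were higher in Scnn, against 13.6% of all features tested. In VIP 7 of the 12 were higher, against 22.6% of all. No conclusion is drawn for the 12 as a set, because only 3 of them were called when the Scnn libraries were left out. Those 3 are GSMG0012407, GSMG0007305 and GSMG0002622, which were also called without the VIP libraries, so neither group alone was needed for their choice. The Scnn and VIP libraries were never left out together. The pair was chosen for its high level in these groups, and the 3 features for following the pair within groups. Their differences between groups are therefore not independent of how the pair was chosen. In Scnn against CamK cortex, 13.6% of the 24553 features tested were higher at adjusted p under 0.05 and at least 2-fold, and 19.6% were called in either direction (edgeR's quasi-likelihood test, Benjamini-Hochberg over all). In VIP against the mean of PV and SST cortex, 22.6% were higher by the same rule. All 3 features were among the higher ones in both comparisons, which is a description only.

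GSMG0007305 was higher by 4.90 on the log2 scale in Scnn (SE 0.51) and by 1.69 in VIP (SE 0.36). GSMG0002622 was higher by 4.86 (SE 0.62) and by 1.93 (SE 0.43). GSMG0012407 was higher by 4.46 (SE 0.51) and by 1.52 (SE 0.37). No p-value is given for these differences, since the features were picked for following a pair that was chosen for its level in these groups. The titles of VIP cortex carry the W and those of PV and SST cortex do not, so population and title series cannot be told apart in the VIP comparison.

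**Figure D4:**
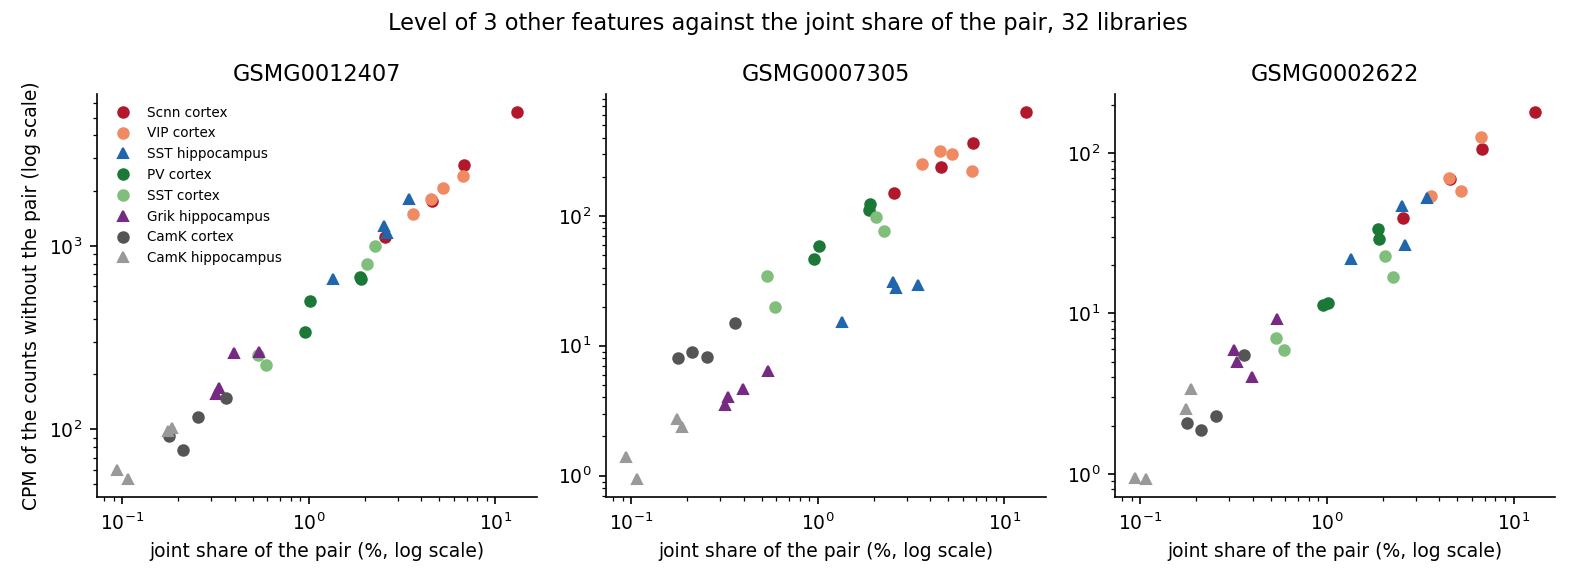
Level of GSMG0012407, GSMG0007305 and GSMG0002622 (CPM of the counts without the pair, log axis) against the joint share of the pair (%, log axis) in 32 libraries. GSMG0012407 and GSMG0002622 stay near 1 line through all groups, while in GSMG0007305 the hippocampal libraries (triangles) lie below the cortical ones (circles). GSMG0012407 is slightly higher in hippocampus, with a median of 4.99 counts per 100 counts of the pair against 3.81 in cortex.

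Over all 32 libraries, the pattern most like that of the pair was sought among the 11126 features that averaged 5 CPM or more. Likeness was the Pearson r between a feature's log2 CPM and the pair's log2 joint share. GSMG0012407 came first at 0.994 and GSMG0002622 second at 0.986, and the next highest was 0.928. The median of all features was 0.13, and 10 features reached 0.9. Within groups, r was 0.97 for GSMG0012407 and 0.90 for GSMG0002622. At the opposite end, GSMG0002431 had -0.882 and GSMG0025077 had -0.867, and no feature was at or below -0.9.

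These 2 features spanned narrower ranges of level than the pair. GSMG0002431 stood at 19.5 ± 1.18 CPM (SD, n = 4) in Scnn cortex and 16.9 ± 0.705 CPM (SD, n = 4) in VIP cortex, against 55.9 ± 5.74 CPM (SD, n = 4) in CamK hippocampus. GSMG0025077 ran only from 99 to 165.5 CPM over all libraries. Within groups their r was -0.16 and -0.37.

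Expressed per 100 counts of the pair, the level of GSMG0012407 varied little. It ran from 3.32 to 6.56 counts with a median of 4.31, a 1.97-fold range, while its CPM spanned 100.9-fold. GSMG0002622 ran from 0.073 to 0.185 per 100 counts of the pair, a 2.53-fold range, while its CPM spanned 195.2-fold. These features were picked for following the pair, so the narrow ranges are a description. For GSMG0051010 the same ratio spanned 47.5-fold, so it did not keep a fixed proportion to the pair between groups.

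The proportion of GSMG0007305 to the pair was lower in hippocampus than in cortex, a difference looked at after the values were seen. It had 0.31 to 0.671 counts per 100 counts of the pair in the 20 cortical libraries, with a median of 0.489. It had 0.0819 to 0.155 in the 12 hippocampal libraries, with a median of 0.117. The cortical and hippocampal libraries did not overlap. The share of all features whose ratio to the pair separated the tissues in this way was not counted. VIP cortex, the cortical group with W in its titles, stood at 0.548 ± 0.17 (SD, n = 4). The part of the title series in this difference was not tested, and within CamK and SST it cannot be told apart from tissue.

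The same order was present within each driver. In CamK the ratio of GSMG0007305 was 0.42, 0.455, 0.319 and 0.413 in cortex and 0.126, 0.155, 0.149 and 0.0875 in hippocampus, a log2 difference of -1.66. In SST it was 0.646, 0.335, 0.331 and 0.469 in cortex and 0.0819, 0.102, 0.111 and 0.118 in hippocampus, a log2 difference of -2.06. The groups did not overlap in either driver. The two-sided exact permutation p was 0.0286 in each driver, the smallest that 4 against 4 libraries can give, and 0.0857 after Benjamini-Hochberg adjustment over the 6 ratios compared.

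The other ratios had smaller differences between tissues. For GSMG0012407 the means were 4.37 in cortex and 5.59 in hippocampus in CamK, and 4.15 and 4.77 in SST (exact permutation p = 0.0571 in each, adjusted 0.0857). For GSMG0002622 they were 0.112 and 0.128 in CamK (exact permutation p = 0.6) and 0.103 and 0.147 in SST (exact permutation p = 0.114, adjusted 0.137). None of the 6 ratios passed 0.05 after adjustment.

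**Figure D5:**
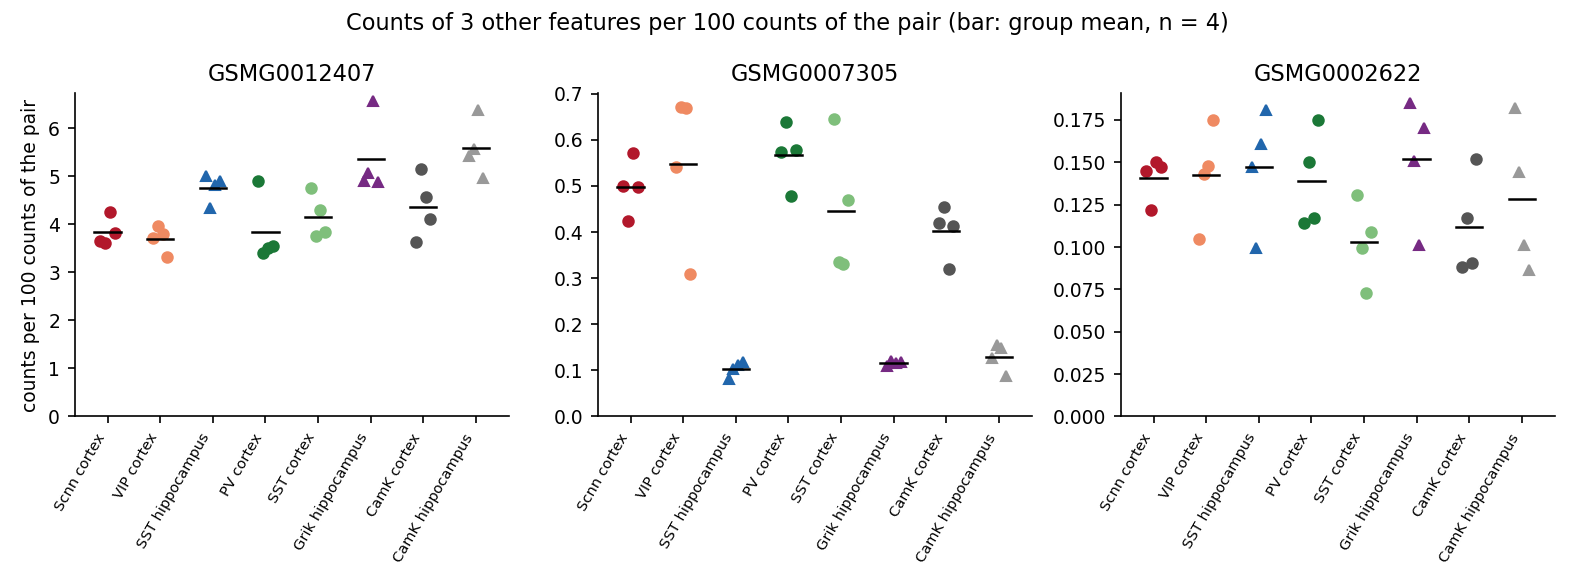
Counts of GSMG0012407, GSMG0007305 and GSMG0002622 per 100 counts of the pair, by group, 1 point per library with bars at the group means. The cortical libraries of GSMG0007305 (0.31 to 0.671) do not overlap the hippocampal ones (0.0819 to 0.155).

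Because the pair takes up to 13% of a library, its effect on the values of other features was measured. On a plain-total scale, its presence shifted every other feature by -0.200 on the log2 scale in Scnn replicate 2, by -0.101 in Scnn replicate 4 and in VIP replicate 4, and by -0.003 to -0.005 in CamK cortex. With TMM scaling the effect was small. In Scnn against CamK cortex, 4809 features were called with the pair in the table and 4824 without it, and 4807 were in both sets. With plain totals 4752 were called with the pair and 4896 without it, and 4560 were in both, after a median log2 shift of 0.097.

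Library measures were compared with the pair within groups. The number of other features at 1 CPM or more ran from 13406 to 16175 and was highest in the 4 VIP libraries, at 15607 to 16175. Its deviations from the group means had a Pearson r of 0.48 with those of the pair's log2 joint share (permutation p = 0.0186, adjusted 0.0558 over 6 tests) and a Spearman rho of 0.48 (permutation p = 0.0147, adjusted 0.0558). Without the 2 libraries farthest from the median r was 0.41 (permutation p = 0.0427, adjusted 0.177). The total count had r = 0.15 and rho = -0.13 (permutation p = 0.457 and 0.493, both adjusted 0.74). The share of the 100 most abundant other features had r = -0.08 and rho = -0.01 (permutation p = 0.674 and 0.976, adjusted 0.809 and 0.976). None passed the threshold after adjustment, and the part of these measures in the results above was not tested.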

How the data were processed

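Ribosome-associated RNA of 32 mouse forebrain libraries was prepared with a stranded kit for polyadenylated RNA, per the labels' protocols. The authors deposited expected counts, which need not be whole, for 56459 features, and 20.1% of the values above 0 were whole within 1e-06. Per the submitters' processing notes, the build was GRCm38, and SAMtools, Picard, featureCounts and FastQC were among the tools, without versions. Not given in the sources used here are the aligner, annotation, counting mode and use of strand, so reads shared with overlapping, antisense or near-identical features cannot be told apart. All libraries were at 0 for 15646 features, and 12 columns of values whose names match no sample were not used.

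Counts were rounded to whole numbers and fitted with edgeR 4.0.16 in R 4.3.3 (TMM, filterByExpr, robust quasi-likelihood F test, Benjamini-Hochberg adjustment over all features) with 1 coefficient per group. Calls between groups needed a 2-fold difference and an adjusted p under 0.05. Each SE of a fitted value was derived as its absolute size divided by the square root of the F statistic of its test. The within-group fit added the pair's centred log2 joint share, with 23 residual degrees of freedom. The edgeR steps of the within-group test and of the Scnn against CamK cortex test were also run on simulated counts. The other tests were not. Log2 CPM used a prior count of 2. Library measures were tested with 100000 permutations within groups, two-sided, and region ratios with two-sided exact permutation tests (scipy 1.17.1). Alternatives were DESeq2 1.42.0, other scaling and filters, a replicate block, and libraries or groups left out. Named features were the members, the 2 highest and 2 lowest in likeness, and the 2 largest coefficients of each sign among calls that averaged 5 CPM or more, of which none was negative. The members and the features followed up were chosen with earlier results of these data known.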

Additional observations from a re-analysis of the deposited data

Results flagged for a closer look

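Between hippocampus and cortex the group means of both members moved in opposite directions in CamK and in SST. In CamK the hippocampal libraries were lower by a mean log2 difference of -0.90 for GSMG0038934, -0.74 for GSMG0023431 and -0.85 for the joint share, and 4 of 4 lay below the cortical geometric mean. In SST they were higher by 1.07, 1.16 and 1.10, and 4 of 4 lay above the cortical geometric mean, though replicate 3, at a joint share of 1.34%, lay below the arithmetic mean of 1.36%. The libraries of the tissues overlapped in joint share in both drivers. In CamK they ran from 0.0938% to 0.186% in hippocampus and from 0.178% to 0.36% in cortex. In SST they ran from 1.34% to 3.46% in hippocampus and from 0.533% to 2.27% in cortex. The difference between the drivers was not tested, and tissue cannot be told apart from the W in the titles.

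In Grik hippocampus, replicate 6 stood apart in GSMG0023431, at 0.218% of counts against 0.128% to 0.132% in the others. In the same group, replicate 5 stood apart in the count ratio of GSMG0038934 to GSMG0023431, at 2.03. In all, 32 sets of 4 libraries were examined and 2 held such a library. Chance alone marks about 1 in 20 sets.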

How the results depend on the processing

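The number of features that moved with the pair within groups, 12, changed with the settings. It was 22 with a replicate block, 94 with DESeq2 (90 higher and 4 lower), 3 without the Scnn libraries, 7 without the VIP libraries and 5 without the SST cortex libraries, the last chosen after seeing the data. Leaving out 1 library gave 3 (Scnn replicate 2 or replicate 3) to 26 (SST hippocampus replicate 3). It gave 6 without SST cortex replicate 1, 2 or 4, 20 without Grik hippocampus replicate 3 and 22 without PV cortex replicate 1. With GSMG0038934 alone as the covariate 16 were called, 11 of them among the 12, and with GSMG0023431 alone 14 were called, only 5 of them among the 12. In Scnn against CamK cortex, 2968 of 16641 features were called when at least 1 CPM in 4 libraries was required. In the main setting 4809 of 24553 were called. Leaving out 1 library gave 4229 to 4817, and a replicate block gave 4689. Replicate numbers were not taken as pairs. Over the features fitted, the deviations of same-numbered libraries had r from -0.01 to 0.04 between Scnn and CamK cortex. This r was 0.04 to 0.12 between PV and Scnn, -0.01 to 0.11 between PV and SST cortex and -0.05 to 0.10 between Scnn and SST cortex. The pair's own deviations in replicates 1 to 4 were -0.31, 1.19, -1.15 and 0.26 in Scnn and -0.44, 0.48, -0.51 and 0.46 in PV. They were -0.19, -0.45, 0.07 and 0.57 in CamK cortex and -1.05, -0.90, 1.05 and 0.90 in SST cortex. Signs matched by number between Scnn and PV and between CamK and SST, but not between Scnn and CamK. A shared effect of replicate number on the pair was not tested. Without the 2 farthest libraries the relation of the pair with total count turned to -0.16 and that with the 100 most abundant features to 0.04. The fitted folds of both members kept their direction under every alternative run. With other denominators, each group's joint share moved by less than the SD of its replicates. Leaving out 1 of 4 libraries cannot move a mean by its SD, so those runs are given as ranges only. In Scnn cortex the mean ran from 4.64% without replicate 2 to 8.1% without replicate 3. The order of groups did not hold throughout: Scnn, at 4.64% without replicate 2, fell below VIP at 5.04%. SST cortex, at 1.64% without replicate 1, stood above PV at 1.44%, and PV, at 1.28% without replicate 2, stood below SST cortex at 1.36%.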
